A study of Mus musculus with 10 samples.

Results

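The 60 genes described here are mitosis, spindle and kinetochore genes of the mouse, taken as a list of names with known roles in cell division. The rule that takes them uses no measured value, but the list was chosen with earlier results of these data known. All 60 were among the 14300 genes of the count table. Poly-A RNA was sequenced from cells sorted by flow cytometry from the brains of *Grem1creERT; Rosa26LSLTdtomato* embryos on a C57BL/6J background, 24 h after the pregnant dams received tamoxifen. In these embryos the Cre recombinase is driven by *Grem1* sequences, tamoxifen lets it act, and a cell in which it has acted, together with its progeny, makes the red protein TdTomato. Live TdTomato+ and TdTomato- cells were collected from each of 5 mice, numbered 2 to 6, which gave 5 libraries per population and 10 in all. Both populations carried the same alleles and the same tamoxifen treatment. The TdTomato- cells were all other live cells of the same dissected tissue, which the study's methods give as dorsal telencephalon freed of meninges, so they were a mixture of cell types, and cells in which the Cre had not been induced would also fall there. Because *Grem1* drives the reporter, a label records *Grem1* activity at or after tamoxifen and not at the time of sorting. The comparison asks how the TdTomato+ cells differed from the remaining cells of the same mouse in the machinery of cell division.

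A dividing cell copies its chromosomes, condenses them with condensin and topoisomerase, builds a spindle of microtubules, attaches each chromosome to it through the kinetochore, and separates the copies before the cell is pinched apart. Most genes of this machinery are transcribed mainly late in the cycle, in G2 and mitosis, under the DREAM and B-MYB-FOXM1 complexes, and their transcripts are commonly used to mark dividing cells. In the embryonic cortex the dividing cells are radial glia and intermediate progenitors, whereas the neurons they produce have left the cycle. A few of the proteins also have functions outside mitosis, and their genes are transcribed in cells that do not divide.

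Total counts were 23429034 to 27286180 per library. *Grem1* itself, whose activity defines the sort, was at 5.004 to 7.004 CPM (counts scaled to library size, with the trimmed mean of M values, TMM, setting the scale) in TdTomato- libraries and at 60.7 to 68.4 CPM in TdTomato+ libraries, with a log2 fold change of 3.37 (edgeR, adjusted p = 1.8e-09). No library went against its label.

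All 60 genes were lower in TdTomato+ cells at an adjusted p of at most 0.05 in edgeR's quasi-likelihood test with mouse as a block, and 0 were higher. Of all genes tested, 39.4% were lower and 37.9% were higher at this threshold, a split of 5632 against 5424 genes that became 7123 against 4110 when libraries were scaled by total counts alone. There were 57 of the 60 that also had a log2 fold change of -2 or less, where 9.74% of all genes did. For each of the 60 the lowest TdTomato- library was above the highest TdTomato+ library, a separation seen in 32.4% of all genes. The median log2 fold change of the 60 was -4.64, from -5.71 for *Pbk* to -0.67 for *Bub3*, beside a median of -0.01 over all genes. Summed over the 60 genes, the level was 6287, 6136, 5507, 5722 and 5326 CPM in the TdTomato- libraries of mice 2 to 6. In the TdTomato+ libraries the same sum was 376, 489, 419, 439 and 484 CPM. The 60 genes together took 0.566 to 0.673% of all counts in TdTomato- libraries and 0.0350 to 0.0460% in TdTomato+ libraries. Thus the TdTomato+ sum was 5.99, 7.97, 7.61, 7.68 and 9.09% of the TdTomato- sum of the same mouse. The median over the 60 genes of each gene's own share was lower, at 2.43, 4.86, 3.55, 4.52 and 5.07%. In bulk RNA, a smaller share of dividing cells and less transcript in each dividing cell cannot be told apart.

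**Figure D1:**
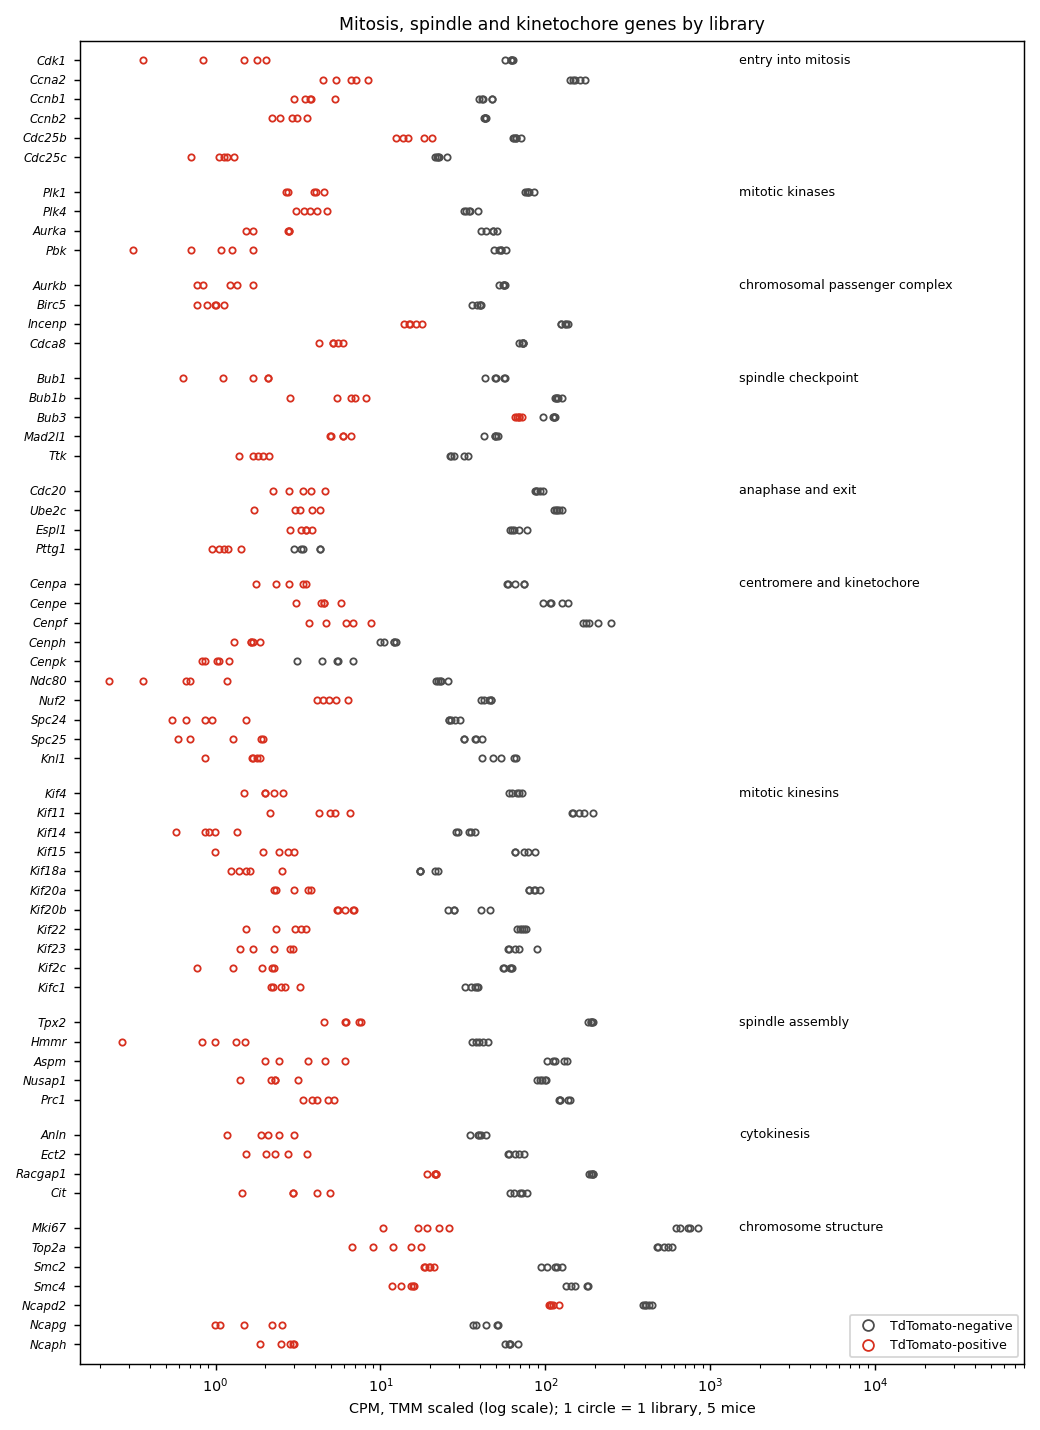
Level of each of the 60 genes in each of the 10 libraries, in TMM-scaled CPM on a log axis, with genes grouped by role. Each circle is 1 library. In every row all 5 TdTomato+ circles lie to the left of all 5 TdTomato- circles, with the narrowest gap for *Bub3*.

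Each gene of the table had at least 0.501 CPM in 5 or more of the 10 libraries, so a gene could enter through the TdTomato- libraries alone. Only 4 of the 60 had a TdTomato+ library at or under 0.5 CPM: *Cdk1*, *Pbk* and *Hmmr* in 1 library each and *Ndc80* in 2. The lowest count of any of the 60 genes was 5 in a TdTomato+ library and 76 in a TdTomato- library, so low TdTomato+ values carry sizeable counting error.

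The promoters of these genes are shown because the list moved together. The letters CCAAT, to which the factor NF-Y binds, and the cell cycle homology region, bound by the DREAM and B-MYB-FOXM1 complexes and searched here as TTTGAA or TTCGAA, are known elements of genes transcribed in G2 and mitosis. RefSeq promoter windows (GRCm38.p6) of 300 bases, 250 before and 50 after each transcription start, were at hand for 51 of the 60 genes, and both strands were searched. CCAAT was found for 36 of the 51 genes (70.6%, against 43.2% of the 10560 tested genes with a window), and at least 2 copies for 23 (45.1% against 16.7%). The homology region was found for 38 (74.5% against 15.9%). Both were in the same window for 32 genes (62.7% against 6.85%). These are matches of letters and not shown sites. The 250 bases upstream of the start follow for *Cdk1* and *Top2a*, the genes with the largest falls among those that held CCAAT and TTTGAA, and for *Cdc25b*, the gene that kept the largest share of its TdTomato- level among those whose upstream window held at most 30 bases of annotated exon. The capitals mark CCAAT and the homology region, each also where it is read on the other strand. They are from chr10:69352913-69353162 (minus strand), chr11:99024190-99024439 (minus strand) and chr2:131186698-131186947 (plus strand).
Cdk1: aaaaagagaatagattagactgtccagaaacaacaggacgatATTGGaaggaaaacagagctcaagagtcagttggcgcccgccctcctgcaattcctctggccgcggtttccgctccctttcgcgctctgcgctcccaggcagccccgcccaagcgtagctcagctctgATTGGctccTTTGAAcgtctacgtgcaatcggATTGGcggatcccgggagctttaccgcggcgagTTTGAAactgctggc
Top2a: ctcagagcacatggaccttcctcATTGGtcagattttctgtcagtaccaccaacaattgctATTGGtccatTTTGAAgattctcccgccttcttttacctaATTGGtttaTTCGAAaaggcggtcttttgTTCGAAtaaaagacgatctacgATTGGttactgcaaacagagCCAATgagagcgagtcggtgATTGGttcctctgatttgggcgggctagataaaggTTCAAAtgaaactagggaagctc
Cdc25b: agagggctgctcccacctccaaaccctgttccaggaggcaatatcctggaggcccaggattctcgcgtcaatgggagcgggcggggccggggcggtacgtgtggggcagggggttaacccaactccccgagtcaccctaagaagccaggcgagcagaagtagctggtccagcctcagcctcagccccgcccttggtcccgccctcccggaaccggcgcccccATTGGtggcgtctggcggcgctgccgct

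*Cdk1* held 3 copies of CCAAT and 2 of the homology region, and the last 26 of its printed bases lie in an annotated exon. *Top2a* held 6 and 4. *Cdc25b* held 1 CCAAT in the printed bases, and its single homology region began 8 bases after the start, outside them. Matches to CCAAT were most frequent just upstream of the start, with 58.9% of the 56 windows of the list holding one within 100 bases before it, against 22.0% of 13605 windows. Matches to the homology region were most frequent around the start. In the first 25-base bin after it, 30.4% of the list's windows had one that began there, against 1.01% of all windows. In the bins just before and just after that bin, 12.5% and 14.3% of the list's windows did, against 0.948% and 0.72%. Among the 30 genes with a window whose TdTomato+ level was under 5% of the TdTomato- level, 70.0% held both, whereas 41.7% of the 12 genes at 10% or more did. The median log2 fold change was -4.74 over the 32 genes with both and -4.24 over the 19 without, with wide overlap: *Nusap1* and *Birc5* held neither and were at -5.39 and -5.35, and *Bub3* held both.

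**Figure D2:**
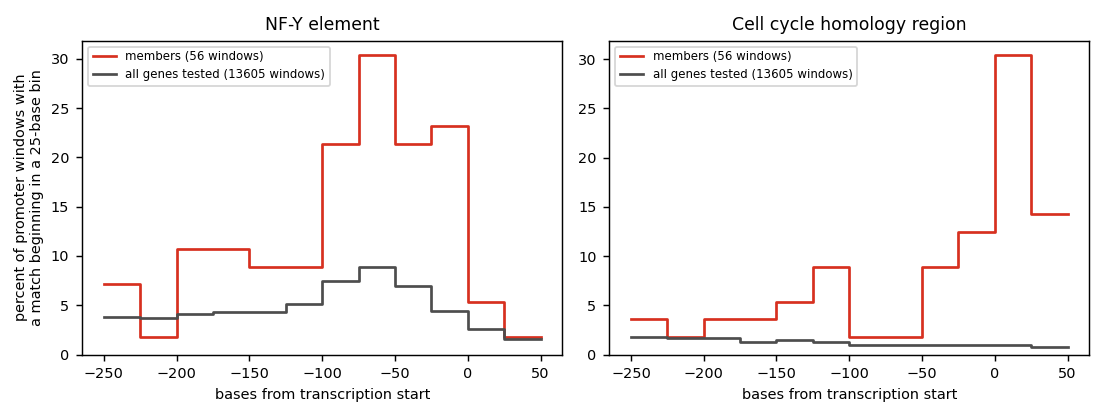
Position of promoter letters relative to the transcription start. The y axis is the percent of windows with a match beginning in each 25-base bin, for the NF-Y element CCAAT (left) and the cell cycle homology region (right), in red for the 56 windows of the list and in grey for 13605 windows of all tested genes. The red line peaks upstream of the start on the left and just after it on the right, at 30.4% of windows in both panels.

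Entry into mitosis is driven by CDK1 with cyclins A and B, which the CDC25 phosphatases switch on. All 6 genes of this group fell, with a median log2 fold change of -4.16. *Ccna2*, which encodes cyclin A2, had the highest level per kilobase of exon among them in TdTomato- cells (38.0 CPM per kb). It was at 152, 174, 161, 147 and 141 CPM in the TdTomato- libraries of mice 2 to 6. In the TdTomato+ libraries it was at 4.49, 8.46, 5.34, 6.65 and 7.14 CPM. The populations were far apart, with a log2 fold change of -4.6 (SE 0.12, adjusted p = 3.5e-09), and 2.95 to 5.08% of the level was kept in each mouse. *Cdk1*, the mitotic kinase itself, was at 62.9, 63.6, 57.1, 62.1 and 61.4 CPM in TdTomato- libraries. In TdTomato+ libraries it was at 0.363, 1.78, 0.839, 1.48 and 2.03 CPM, the first of these from 8 counts. Its log2 fold change was -5.57 (SE 0.22, adjusted p = 2.9e-08), and mouse 2 was clearly the lowest. *Cdc25b*, which activates CDK1 at the start of mitosis, kept more of its level: 66.0, 71.4, 66.3, 63.5 and 64.3 CPM in TdTomato- libraries against 20.6, 12.4, 13.6, 14.8 and 18.3 CPM in TdTomato+ libraries. It fell by 2.07 on the log2 scale (SE 0.11, adjusted p = 2.8e-07), just inside the threshold of -2, which it missed without mouse 3 (-1.96). Here mouse 2 had the highest TdTomato+ value, unlike *Cdk1*. *Cdc25c*, another activator, was at -4.41, and the cyclin B genes *Ccnb1* and *Ccnb2* were at -3.49 and -3.91.

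Mitotic kinases other than CDK1 order the events of spindle building and centrosome duplication, and all 4 genes fell. *Plk1*, the Polo kinase needed for centrosome maturation and spindle building, had the highest level per kilobase of this group (36.0 CPM per kb). It was at 77.5, 85.8, 78.2, 79.2 and 74.9 CPM in TdTomato- libraries and 2.77, 4.55, 2.69, 4.04 and 3.93 CPM in TdTomato+ libraries. That is a log2 fold change of -4.46 (SE 0.10, adjusted p = 2.4e-09). *Pbk*, a kinase abundant in dividing progenitors, had the largest fall of the 60, with 57.9, 53.9, 54.1, 52.4 and 48.6 CPM in TdTomato- libraries. In TdTomato+ libraries it was at 0.317, 1.69, 0.706, 1.26 and 1.09 CPM, from 7 counts in mouse 2. Its log2 fold change was -5.71 (SE 0.21, adjusted p = 2.3e-08). *Aurka*, the Aurora kinase of the spindle poles, was at -4.33. *Plk4*, which starts centriole duplication, was at -3.18 and kept 11.04 ± 1.59% (SD, n = 5) of its TdTomato- level.

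The chromosomal passenger complex corrects faulty attachments and guides cytokinesis, and its subunits kept unequal shares of their levels. *Incenp*, its scaffold, was at 137, 133, 124, 131 and 124 CPM in TdTomato- libraries and 14.0, 17.7, 15.0, 14.8 and 16.3 CPM in TdTomato+ libraries (log2 fold change -3.06, SE 0.07, adjusted p = 1.9e-09). *Aurkb*, its kinase, was at 55.4, 56.7, 52.3, 56.3 and 56.2 CPM and then at 0.771, 1.69, 0.839, 1.35 and 1.22 CPM (log2 fold change -5.56, SE 0.13, adjusted p = 2.2e-09). Within each mouse *Incenp* kept 10.2 to 13.4% of its TdTomato- level and *Aurkb* 1.39 to 2.98%, ranges that did not overlap. The survivin gene *Birc5* kept 1.91 to 2.79% and the borealin gene *Cdca8* 5.79 to 8.04%, so that *Cdca8* also lay apart from all others.

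The spindle checkpoint holds anaphase back until every kinetochore is attached. *Bub1b*, which encodes BubR1, had the highest level per kilobase of its 5 genes (27.7 CPM per kb), with 116, 125, 118, 119 and 114 CPM in TdTomato- libraries. In TdTomato+ libraries it was at 2.81, 8.15, 6.67, 7.0 and 5.47 CPM (log2 fold change -4.32, SE 0.17, adjusted p = 2.8e-08), with mouse 2 the lowest. *Bub3*, which brings Bub1 and BubR1 to the kinetochore and also has a role outside mitosis in RNA splicing, changed least of the 60. It was at 96.6, 112, 114, 113 and 111 CPM in TdTomato- libraries and 65.5, 69.0, 67.6, 68.8 and 72.2 CPM in TdTomato+ libraries. The populations were separate but close, with a log2 fold change of -0.67 (SE 0.04, adjusted p = 9.3e-07), and its TdTomato+ level was 59.0 to 67.8% of the TdTomato- level. Its partners *Bub1* and *Bub1b* kept 1.13 to 4.84% and 2.43 to 6.52%. *Ttk*, the MPS1 kinase that starts checkpoint signalling, was at -4.03, and *Mad2l1*, whose product inhibits CDC20, was at -3.09.

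Anaphase begins when the anaphase-promoting complex, with CDC20, marks securin and cyclin B for destruction and frees separase. *Cdc20* was at 88.0, 96.0, 92.6, 88.8 and 86.2 CPM in TdTomato- libraries (48.4 CPM per kb, the highest of this group) and 2.22, 3.82, 3.40, 2.78 and 4.61 CPM in TdTomato+ libraries. Its log2 fold change was -4.75 (SE 0.13, adjusted p = 4.4e-09). The securin gene *Pttg1* was low in both populations, at 4.30, 4.28, 3.37, 3.01 and 3.28 CPM against 1.13, 1.43, 1.19, 1.04 and 0.949 CPM. With a log2 fold change of -1.66 (SE 0.15, adjusted p = 7.2e-06) it was 1 of the 3 genes that did not reach -2. *Espl1*, which encodes separase, the partner of securin, was at -4.29. In all mice *Pttg1* kept 26.4 to 35.4% of its level and *Espl1* 4.59 to 5.61%. *Ube2c*, the ubiquitin-conjugating enzyme of the complex, was at -5.20, with 22.8% of its exonic length overlapped by *Tnnc2* on the other strand.

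Centromere and kinetochore genes, 10 in all, had log2 fold changes from -5.21 to -2.33 with a median of -4.75. *Cenpe*, a kinesin that moves chromosomes to the spindle equator, led per kilobase (13.3 CPM per kb). It was at 136, 127, 106, 108 and 96.9 CPM in TdTomato- libraries and 3.08, 5.77, 4.37, 4.52 and 4.52 CPM in TdTomato+ libraries (log2 fold change -4.68, SE 0.13, adjusted p = 5.7e-09). *Cenpf*, *Cenpa* (the centromeric histone) and *Knl1* (the platform for checkpoint proteins) were at -5.04, -4.58 and -5.10. *Cenpk*, a subunit of the constitutive centromere network, was the lowest of the group per kilobase in TdTomato- cells, with 5.47, 6.84, 5.49, 4.40 and 3.14 CPM against 1.04, 1.21, 1.01, 0.826 and 0.859 CPM (log2 fold change -2.33, SE 0.15, adjusted p = 7.7e-07). *Cenph*, of the same network, was at -2.80. The 4 subunits of the NDC80 complex, the microtubule-binding arm of the kinetochore, did not keep equal shares: *Nuf2* kept 9.56 to 13.9%, whereas *Ndc80* kept 0.881 to 5.04%, *Spc24* 2.10 to 5.67% and *Spc25* 1.57 to 5.95%. *Nuf2* stood above its partners in all 5 mice, although *Ndc80* rested on only 5 and 8 counts in the TdTomato+ libraries of mice 2 and 6.

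Mitotic kinesins slide, move and depolymerise spindle microtubules. All 11 fell, with a median log2 fold change of -4.93. *Kif11*, the motor that pushes the spindle poles apart, was at 193, 172, 146, 161 and 145 CPM in TdTomato- libraries (21.9 CPM per kb) and 2.13, 6.55, 4.24, 5.30 and 4.97 CPM in TdTomato+ libraries. Its log2 fold change was -5.14 (SE 0.20, adjusted p = 3.3e-08). *Kif2c*, a microtubule depolymerase, was also at -5.14, and *Kif14*, *Kif15* and *Kif4* were at -5.13, -5.05 and -5.00. *Kif23*, *Kif20a* and *Kif22* were at -4.93, -4.82 and -4.71. *Kifc1*, which focuses the poles, was at -3.84, and *Kif18a*, which dampens chromosome movement, at -3.53. *Kif20b*, a relative of *Kif20a* known to act in cytokinesis and in the shape of young neurons, was at -2.42. It was at 46.0, 40.8, 28.1, 27.9 and 25.5 CPM in TdTomato- libraries and at 5.44, 6.81, 6.89, 5.57 and 6.06 CPM in TdTomato+ libraries. *Kif20b* kept 11.8 to 24.5% and *Kif20a* 2.66 to 4.76%, though 29.3% of the exonic length of *Kif20a* overlaps *Cdc23* on the other strand.

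Spindle assembly genes were the most uniform group, with all 5 between -5.39 and -4.90. *Tpx2*, which activates Aurora A and nucleates microtubules, was at 191, 195, 189, 189 and 180 CPM in TdTomato- libraries (40.4 CPM per kb) and 4.53, 7.63, 6.09, 6.22 and 7.37 CPM in TdTomato+ libraries (log2 fold change -4.90, SE 0.10, adjusted p = 1.8e-09). *Nusap1*, which bundles microtubules around chromosomes, was at 99.3, 100.3, 92.3, 95.4 and 89.2 CPM and then at 1.41, 3.17, 2.30, 2.17 and 2.31 CPM (log2 fold change -5.39, SE 0.13, adjusted p = 2.4e-09). For both genes mouse 2 had the lowest TdTomato+ library and mouse 3 the highest. *Hmmr*, *Aspm* (needed for the spindle orientation of cortical progenitors) and *Prc1* (which bundles the midzone) were at -5.34, -5.00 and -4.91.

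Among the 4 genes of cytokinesis, *Racgap1* led per kilobase (26.9 CPM per kb). This subunit of centralspindlin, which gathers at the spindle midzone, was at 193, 195, 188, 192 and 183 CPM in TdTomato- libraries and 21.6, 21.5, 19.1, 21.3 and 21.8 CPM in TdTomato+ libraries. Its log2 fold change of -3.18 (SE 0.05, adjusted p = 1.1e-09) was very even, and it kept 10.2 to 11.9% of its level, while its partner *Kif23* kept 1.58 to 4.72%. *Ect2*, *Cit* and *Anln*, which act at the cleavage furrow, were at -4.75, -4.41 and -4.24.

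Genes of chromosome structure held the highest levels of the list. *Mki67*, which coats mitotic chromosomes and is the best-known label of dividing cells, led per kilobase at 71.6 CPM per kb. It was at 845, 735, 615, 750 and 657 CPM in TdTomato- libraries and 10.3, 26.2, 16.9, 19.2 and 22.8 CPM in TdTomato+ libraries (log2 fold change -5.26, SE 0.21, adjusted p = 3.3e-08). *Top2a*, the topoisomerase that untangles sister chromatids, was at 584, 552, 483, 525 and 473 CPM and then at 6.75, 17.5, 8.96, 11.9 and 15.3 CPM (log2 fold change -5.47, SE 0.20, adjusted p = 2.2e-08). Both were lowest in the TdTomato+ library of mouse 2 and highest in that of mouse 3, the reverse of mouse 2's rank among TdTomato- libraries.

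The 5 condensin I genes measured, whose products compact mitotic chromosomes, spread over a wide range. *Ncapd2* was at 443, 408, 390, 423 and 403 CPM in TdTomato- libraries and 105, 108, 111, 106 and 121 CPM in TdTomato+ libraries. Its log2 fold change of -1.90 (SE 0.05, adjusted p = 5.7e-09) was the nearest outside the threshold of -2, which it passed when libraries were scaled by total counts alone (-2.08). Its share of 23.8 to 30.1% lay above 14.5 to 21.03% for *Smc2*, 6.59 to 12% for *Smc4*, 1.97 to 5.85% for *Ncapg* and 3.03 to 5.19% for *Ncaph*. *Smc2* and *Smc4*, the ATPase subunits, are shared with condensin II. Their log2 fold changes were -2.50 and -3.44, and those of *Ncapg* and *Ncaph* were -4.73 and -4.55. In TdTomato+ cells the level of *Ncapd2* per kilobase (17.6 CPM per kb) was above that of *Bub3* (9.79 CPM per kb), although *Bub3* kept the larger share of its own level.

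Arranged by the share kept, 37 of the 60 genes had TdTomato+ levels under 5% of the TdTomato- level (mean over 5 mice), 10 lay at 5 to 10%, and 8 at 10 to 20% (*Plk4*, *Incenp*, *Mad2l1*, *Cenph*, *Nuf2*, *Kif20b*, *Racgap1* and *Smc2*). Another 4 lay at 20 to 50% (*Cdc25b*, *Pttg1*, *Cenpk* and *Ncapd2*), and *Bub3* was at 62.8 ± 3.52% (SD, n = 5).

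**Figure D3:**
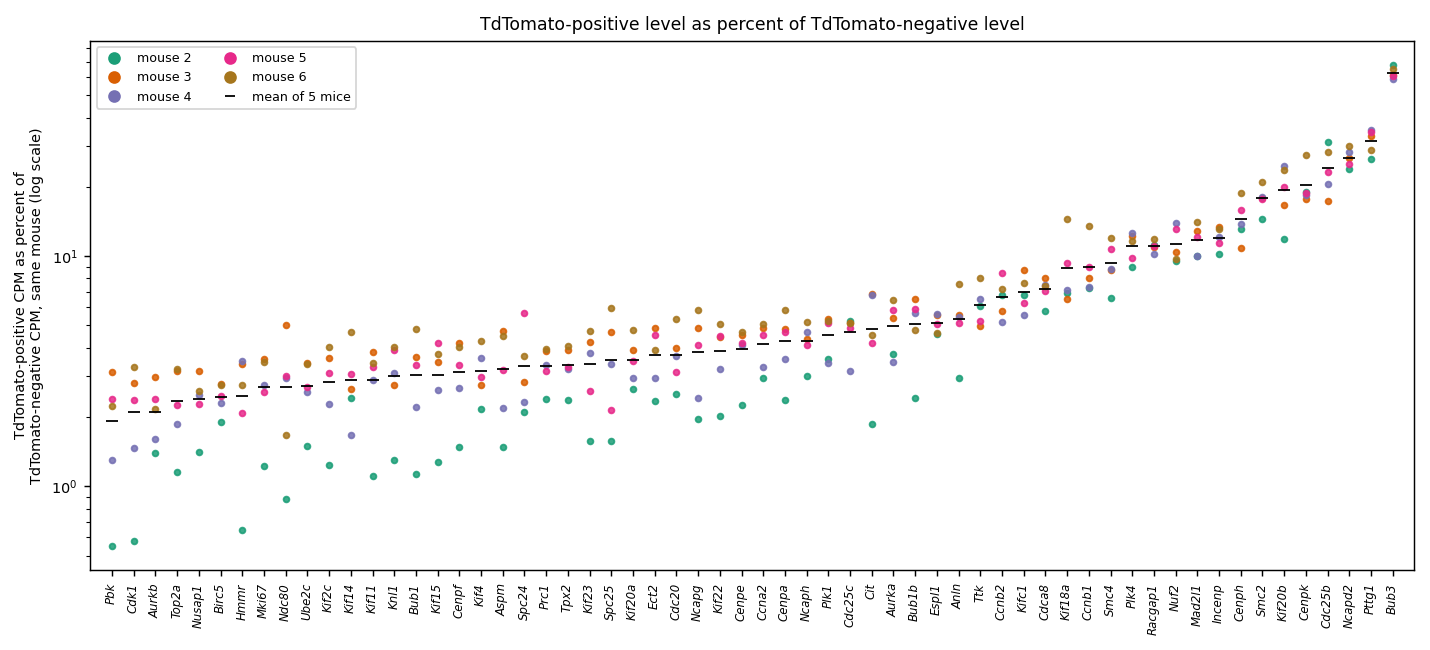
TdTomato+ level of each of the 60 genes as percent of the TdTomato- level of the same mouse, on a log axis, ordered by the mean of 5 mice (bars). Coloured points are the 5 mice. Mouse 2 lies lowest over most of the left side, where the share is under 5%, and mixes with the other mice towards *Bub3* on the right.

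The TdTomato+ libraries at the extremes were often the same. The library of mouse 2 was the lowest of the 5 for 45 of the 60 genes (75%), whereas it was the lowest for 23.8% of all genes. The library of mouse 3 was the highest for 38 (63.3%, against 19.4% of all genes) and that of mouse 6 for 16 (26.7%, against 19.6%). Mouse 2 was lowest and mouse 3 highest at once for 31 of the 60 (51.7%, against 7.97% of all genes). Among TdTomato- libraries, mouse 6 was the lowest for 42 (70%, against 19.5%), mouse 3 the highest for 31 (51.7%, against 16.5%) and mouse 2 the highest for 23 (38.3%, against 26.3%). The genes share their libraries, so these counts describe 10 libraries and not 60 separate measurements. Over the 37 genes under 5%, the median share was 1.87, 3.91, 2.95, 3.28 and 4.09% in mice 2 to 6, and mouse 2 had the lowest share for 33 of them. For the 8 genes at 10 to 20% the medians were 10.7, 12.5, 13.2, 12.6 and 13.6%, so that mouse 2 lay nearer the others. The coefficient of variation between TdTomato+ libraries had a median of 24.98% over the 60 genes, where counting alone would give 12.6%. Over all genes the median was 9.93%, where counting alone would give 4.43%. Between TdTomato- libraries the median was 7.60% over the 60 genes, compared with 9.72% over all genes. The variation was larger in the 37 genes under 5% (median 30.6%) than in the 13 genes at 10% or more (12.3%), where counting alone would give 13.8% and 8.48%.

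The lists of cell type markers moved beside these genes. All 10 radial glia markers fell (median log2 fold change -4.36), with *Sox2* at -5.22 and *Pax6* at -4.62. Their summed level was 2055 to 2489 CPM in TdTomato- libraries and 140 to 200 CPM in TdTomato+ libraries, or 5.98, 8.06, 7.75, 7.26 and 8.52% in mice 2 to 6, with mouse 2 again the lowest. All 6 intermediate progenitor markers fell as well (median -4.52), to 5.88, 7.63, 7.501, 6.24 and 7.18%. Of 8 glutamatergic neuron markers, 7 rose and *Slc17a6* fell (-2.54), and their sum was 1846 to 2621 CPM in TdTomato- libraries and 7013 to 8407 CPM in TdTomato+ libraries. All 8 GABAergic neuron markers fell (median -4.30), from 1365 to 1747 CPM down to 45.7 to 69.6 CPM. The part of these shifts in the fall of the mitosis genes was not tested.

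Markers of other cell types were mixed, and counts of 1 of 2 are near the 39.4% of all genes called lower. The 6 microglia markers found fell (median -5.53; *Tyrobp* was too low for a filter of more than 1 CPM), from 13.1 to 61.2 CPM down to 0.725 to 1.67 CPM, with 3 of them at 3 counts or fewer in every TdTomato+ library. The 5 erythroid markers fell from 74.2 to 258 CPM down to 1.18 to 25.6 CPM, and the share that remained was 1.08, 11.8, 24.9, 1.71 and 2.00% in mice 2 to 6. Erythroid markers were thus highest in mouse 4, both by this share and by level in the TdTomato+ library. All 4 oligodendrocyte lineage markers fell, from 43.0 to 64.3 CPM down to 2.03 to 3.83 CPM. Of these, *Olig1* and *Cspg4* had 1 count in their lowest TdTomato+ library, and *Cspg4* is also counted among the pericyte markers. Of the markers found, 1 of 2 for endothelium (2.04 to 3.62 CPM, then 0.678 to 1.91 CPM), 3 of 4 for pericytes (11.6 to 18.8 CPM, then 1.01 to 3.04 CPM) and 1 of 2 for meninges (1.88 to 5.29 CPM, then 0.564 to 1.09 CPM) were lower. *Pecam1* (adjusted p = 0.052), *Abcc9* (0.066) and *Dcn* (0.28) did not pass, although *Pecam1* was called lower with upper-quartile scaling, without mouse 2 or with total counts alone, and *Abcc9* without mouse 5 or with total counts alone. The meningeal marker that passed, *Col1a2*, was too low to be tested under the filter of more than 1 CPM. Both choroid plexus markers found were lower, from 10.46 to 17.04 CPM down to 0.407 to 3.35 CPM, of which *Clic6* was likewise too low for that filter. Their part in the result was not tested.

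**Figure D4:**
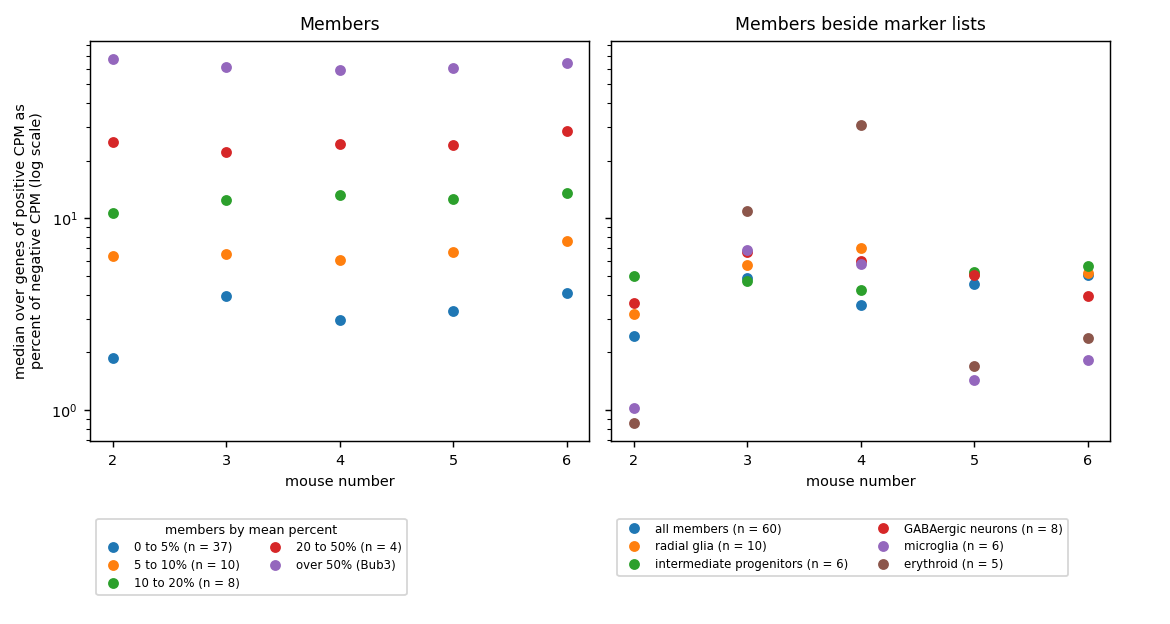
TdTomato+ level as percent of the TdTomato- level in each mouse, on a log axis, as the median over the genes of each set. The left panel splits the 60 genes by their mean share, and the right panel sets them beside marker lists. Mouse 2 is the lowest of the 5 for the 37 genes under 5% (1.87%), and the erythroid markers reach their highest point, 30.6%, in mouse 4.

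Other genes of cell division were taken from further lists to see how far the fall reached. Another 29 mitotic genes were lower in all 29 cases (median log2 fold change -4.31), with the largest changes for *Depdc1b* (-5.87) and *Troap* (-5.67) and the smallest for *G2e3* (-0.27, adjusted p = 0.028). *G2e3* was not called without mouse 2, 3 or 4, which left 28 of the 29. Of 30 further kinetochore genes, 27 were lower, 1 was higher and 2 were not called (median -2.79). The largest changes were those of *Ska1* (-5.55), which tracks microtubule ends, and *Sgo1* (-5.01), which guards centromeric cohesin. *Cenpt* was the gene that was higher (0.15, adjusted p = 0.018), a direction not called with total counts alone, with DESeq2, or without mouse 4 or mouse 6. *Zwint* and *Cenpc1* were at 0.07 each (adjusted p = 0.12 and 0.27).

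Regulators of cell cycle transcription, 20 in all, gave 18 lower, 0 higher and 2 not called (median -1.21). With RLE scaling or without mouse 2, *Rbl2* (0.11, adjusted p = 0.052) was called higher. The largest changes were *E2f8* (-5.20) and *Foxm1* (-5.19), the latter from 150 ± 14.9 CPM to 4.14 ± 1.43 CPM (SD, n = 5). *Mybl2*, which encodes B-MYB, was at -4.19, whereas *Lin9*, a constant subunit of the DREAM and B-MYB complexes, was at -0.77. All 12 centrosome genes were lower but with a median of only -0.83, led by *Stil* (-4.83) and *Nek2* (-4.43). The smallest change was that of *Cdk5rap2* (-0.16), which was not called with no block (adjusted p = 0.0528).

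Cohesin and condensin II genes were lower in 14 cases of 16 (median -0.57), led by *Esco2* (-5.22) and *Cdca5* (-5.12), which fix cohesin on replicated DNA, while the cohesin subunits *Rad21* and *Smc3* were at -1.21 and -0.45. The other 2, *Mau2* and *Esco1*, were called higher, and with total counts alone 0 were. *Esco1* was also not called with upper-quartile scaling, with DESeq2, with no block, or without mouse 3, 4 or 5. The anaphase-promoting complex and its regulators were lower in 12 cases of 17 and higher in 1 (median -0.24), led by *Fbxo5* (-3.64), its inhibitor, and *Ube2s* (-1.03), an enzyme that extends its ubiquitin chains. The 1 that was higher, *Anapc5* (0.13, adjusted p = 0.0061), was not called higher with total counts alone, which gave 16 lower. Kinesins of axonal and vesicle transport went the other way from the mitotic kinesins: 8 of 10 were higher, 1 was lower and 1 was not called (median 0.48), with *Kif5a* at 1.29, *Kif1a* at 0.86 and *Kif21a* at -0.84. With total counts alone, 8 were still higher and 2 were lower. Total counts alone moved the median of all genes from -0.01 to -0.18 on the log2 scale, and changes smaller than that shift are given no firm direction.

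**Figure D5:**
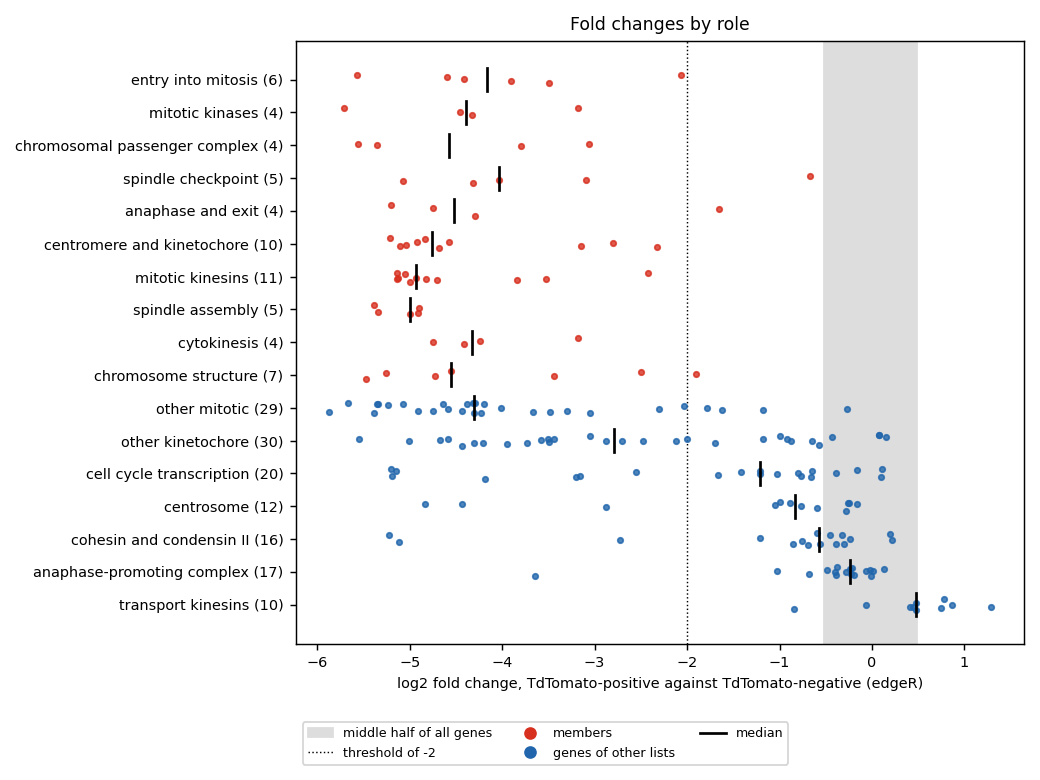
Log2 fold change of TdTomato+ against TdTomato- cells for each gene, by role, with the 60 genes in red, genes of further lists in blue and black bars for medians. The grey band is the interquartile range of all genes, and the dotted line is the threshold of -2. The red medians lie between -5.00 and -4.03, while the blue medians run from -4.31 for other mitotic genes to 0.48 for transport kinesins.

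Several of the 60 genes share exonic bases with a gene on the other strand, and although the libraries were strand-specific, the strand setting used for counting is not given in the sources used here. Besides *Kif20a* and *Ube2c*, the share of exonic length was 15.1% for *Kif4*, 13.4% for *Ncapg*, 12.7% for *Cdc25c*, 12.5% for *Ccna2* and 11.1% for *Prc1*. For these 7 genes, with over 10% overlapped, the counts could depend on the strand setting. Another 10 of the 60 genes had smaller overlaps, of at most 7.1%, among them *Top2a* and *Ncapd2*, which overlap genes on the same strand. On the GRCm38 map, 11 of the 60 genes were on chromosome 2, which holds 7.80% of all genes tested, and the remainder were spread over other chromosomes.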

How the data were processed

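Live cells of each of 5 mice were sorted into TdTomato+ and TdTomato- populations, and all 10 libraries were used. The values deposited by the authors are unnormalized read counts for each gene, made after trimming (Trim Galore, Phred 28), alignment with STAR 2.4.2a to GRCm38 with at most 1 mismatch and counting of unique reads within STAR. Which annotation release and strand setting were used is not given in the sources used here. The submitters' notes also name edgeR 3.28.0.

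Counts were fitted for all 14300 genes with edgeR 4.0.16 in R 4.3.3 (TMM, glmQLFit, glmQLFTest, mouse as a block, as the study's methods describe paired comparisons), with Benjamini-Hochberg adjustment over all genes, a cut-off of 0.05 for the adjusted p and, where stated, a log2 change of at least 2 in size. Each mouse number carries both populations, which pairs the libraries. Deviations of same-numbered libraries from their group means correlated at 0.303, 0.268, 0.281, 0.186 and 0.316 for mice 2 to 6, and at -0.312 to 0.212 for libraries of different mice. Levels are CPM on TMM-scaled library sizes, and shares are TdTomato+ CPM as percent of TdTomato- CPM in the same mouse. The fits were tested on simulated data. Total counts were alike between libraries, so counting error differed with the level of a gene more than with the library, and the values given for counting alone cover counting error only.

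Symbols, coordinates and exonic lengths came from GENCODE (GRCm38), which matched 14271 of the identifiers, and promoters from RefSeq windows. The genes and lists were chosen with earlier results of these data known, and they give no independent support to a pattern. Per-library values are given for the gene with the highest level per kilobase in each role, the 5 largest falls, the 5 highest shares and the genes next to the threshold of -2 (*Kif20b* was added after its values were seen). From each further list the 2 largest changes are named, and other genes there were chosen after their values were seen. The rule for promoters named the gene with the highest share, *Bub3*, but its upstream window and those of *Pttg1* and *Ncapd2* held over 30 bases of annotated exon, so *Cdc25b* was printed. Alternatives were RLE and upper-quartile scaling, DESeq2 1.42.0, the TREAT test of edgeR, other filters on low counts, no block, each mouse left out, and total counts alone.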

Additional observations from a re-analysis of the deposited data

Results flagged for a closer look

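Among the 120 groups of 5 libraries formed by the 60 genes in either population, 7 had a library far from the other 4. The measure was its gap to the nearest library divided by the whole range of the group, on log2 CPM (a ratio above 0.71). Chance alone flags about 1 group in 20, which is 6 of 120. In TdTomato- libraries these were *Bub3* in mouse 2 (ratio 0.845, 96.6 CPM against 111 to 114), *Mad2l1* in mouse 6 (0.772, 42.3 CPM against 49.3 to 51.6), *Cdca8* in mouse 6 (0.717, 69.5 CPM against 72.3 to 73.5), *Aurkb* in mouse 4 (0.711, 52.3 CPM against 55.4 to 56.7) and *Cdc25c* in mouse 3 (0.717, 25.4 CPM against 21.5 to 22.6). In TdTomato+ libraries they were *Knl1* in mouse 2 (0.853, 0.861 CPM from 19 counts against 1.67 to 1.87) and *Racgap1* in mouse 4 (0.829, 19.1 CPM against 21.3 to 21.8). For each of these genes, the libraries of the 2 populations remained apart.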

How the results depend on the processing

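Each of the 60 genes was lower in TdTomato+ cells in 720 of 720 single-gene values from the alternatives other than TREAT, with an adjusted p of at most 7e-05. Of these, the 60 values with no filter on low counts repeat the reported fit, since no gene of the table was removed by its filter. With no replicate block, 60 genes were still lower and 57 passed both thresholds, and the block changed no call among them. The count past both thresholds was 55 when the fold change was tested against the threshold itself (the TREAT test), 58 with total counts alone, and 56 to 57 when each mouse was left out in turn. Log2 fold changes moved by at most 0.18 from the reported fit with the scaling. Across the fits with each mouse left out, the lowest and highest value of a gene lay at most 0.60 apart. The summed level in TdTomato+ cells was 7.66% of that in TdTomato- cells as a mean over mice, 7.31 to 8.09% when each mouse was left out, and 4.09% when the median over the 60 genes was taken in place of the sum, a choice made after seeing the data that gives highly expressed genes with large shares no extra weight. Total counts alone were also added after seeing the data. With no replicate block, *Esco1*, *Cdk5rap2* and *Rb1* of the further lists lost their calls, and without mouse 5 the erythroid marker *Hba-a1* did (adjusted p = 0.05001). Genes at a few counts in TdTomato+ libraries limit the precision of the largest falls, and genes below the level at which the table begins were not analysed here.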
